A study of Mus musculus with 4 samples.

Results

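Ribosome footprints, the stretches of mRNA that ribosomes shield from nuclease, were compared between treated and untreated muscle of the Dmd Dup2 mouse. The comparison takes the 2 footprint libraries of the 4 libraries in the study and all 1000 genes of the deposited table. Both groups carry the Dup2 allele, a duplication of exon 2 of Dmd, the dystrophin gene, and both are tibialis anterior, a muscle at the front of the lower leg. The treated group had been given scAAV9.U7-ACCA, an AAV9 vector with a self-complementary genome that delivers a modified U7 snRNA, a small RNA that masks splice signals so that an exon is skipped. Ribosomes were held on their mRNA with cycloheximide in a homogenate of frozen tissue, and the protected fragments were made into libraries with a small RNA kit. Each group has 1 library, so every difference given here lies between 2 libraries and no p-value was computed. Age, sex, dose, time after injection and the number of animals in a library are not stated in the labels, and neither is any pooling.

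A footprint marks a ribosome at work on a coding sequence, so the number of footprints on a gene follows both the amount of its mRNA and how densely ribosomes sit on it. In skeletal muscle most translation serves the sarcomere, the calcium stores and the enzymes that supply ATP. Muscle that lacks dystrophin goes through rounds of fibre damage and repair, with inflammatory cells, connective tissue and newly formed fibres beside mature ones. In whole tissue, fewer cells of a type and less RNA per cell cannot be told apart, and this holds for every gene group below.

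Promoters of genes at both ends of the comparison are shown first, because they hold textbook regulatory elements of muscle and matrix genes. They come from RefSeq promoter entries of assembly GRCm38.p6, which could be matched to 809 listed genes, and 250 bases before the start were searched on both strands. Each stretch reads 5′ to 3′ on the gene's strand, with the matched letters in capitals. Nr4a1, Trim63 and Xirp2 had more footprints in the treated library, and Actc1 and Col1a2 had fewer. The Nr4a1 stretches (chr15:101266606-101266655 and chr15:101266766-101266825, plus strand) each hold CGTCA, the reverse complement of the cyclic AMP response element half-site TGACG, in 2 copies. The Trim63 stretch (chr4:134314904-134314953, plus strand) holds the glucocorticoid receptor palindrome GAACANNNTGTTC and, without overlap, TGTTTAC, the reverse complement of the FOXO element GTAAACA. Xirp2 (chr2:67445902-67445961, plus strand) holds a MEF2 site, Actc1 (chr2:114052891-114052950, minus strand) a CArG box, which serum response factor binds, and Col1a2 (chr6:4505488-4505547, plus strand) a CCAAT box.
Nr4a1 distal: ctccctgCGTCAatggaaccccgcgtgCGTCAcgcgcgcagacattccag
Nr4a1 proximal: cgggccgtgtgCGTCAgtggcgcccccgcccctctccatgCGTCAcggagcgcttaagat
Trim63: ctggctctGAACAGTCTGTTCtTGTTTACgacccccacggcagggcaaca
Xirp2: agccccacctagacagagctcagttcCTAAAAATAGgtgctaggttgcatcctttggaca
Actc1: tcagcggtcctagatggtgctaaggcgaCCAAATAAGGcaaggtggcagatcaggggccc
Col1a2: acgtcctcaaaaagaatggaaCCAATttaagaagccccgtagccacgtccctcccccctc

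For each element, the genes with a match in any of their promoter entries were counted. The TGACG half-site was in 19.8% of 27025 genes in RefSeq and in 32.8% of the listed ones. By call the shares were 31.4% of the genes called higher in treated muscle, 35.7% of those called lower and 31.7% of those called neither way. CCAAT was in 37.5% of all genes and 42.2% of listed ones. Its shares by call were 43.8% of genes called higher, 41.0% of those called lower and 42.0% of the rest. GTAAACA was in 3.54% of all genes and 1.73% of listed ones. By call it was in 4 of 153 genes called higher, 1 of 210 called lower and 9 of the other 445. The MEF2 site was in 3.42% of all genes. Among listed genes it was in 6.54% of those called higher, 1.90% of those called lower and 3.37% of the rest (10, 4 and 15 genes). For the CArG box the shares were 1.62% of all genes, 5.23% of genes called higher, 2.86% of genes called lower and 2.25% of the rest. The last 3 shares are 8, 6 and 10 genes. The glucocorticoid palindrome was in 10 of the 27025 genes, and Trim63 was its 1 listed gene. A match describes the letters in this window and no binding was measured.

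The listed genes held 3349015 footprint reads in the untreated library and 1664122 in the treated one. The median gene had 626 and 297 reads, and the lowest had 23 and 13. The table holds the genes with most reads in the untreated mRNA library, so a gene that is low there and has many treated footprints would not appear. Libraries were scaled with TMM, a trimmed mean of gene ratios, by which a gene that does not differ has 0.483 treated reads for each untreated read. A fold change below is the ratio of reads scaled in this way, followed by its exact 95% interval for counting error. Genes were called higher or lower at 1.5-fold or more, with an interval that excluded 1 and at least 50 reads over both libraries.

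Of the 999 genes with enough reads, 199 (19.9%) were called higher and 262 (26.2%) lower in treated muscle, and 538 were called neither way. Each count of list members below is to be set beside these shares. Rbm4, with 38 reads in all, was under the minimum. On the log2 scale the median gene lay at -0.02, the quartiles at -0.60 and 0.47, and the 5th and 95th percentiles at -1.59 and 1.29. The spread over genes was 0.91 (SD), against a median half-width of 0.21 for the counting interval of 1 gene, so the spread over genes was larger than counting error. The half-width fell from 0.56 in genes with 50 to 199 reads to 0.04 in those with at least 10000. At 2-fold or more, 81 genes were higher and 143 lower, and at 5-fold or more 6 were higher and 13 lower. Only 76 genes, or 7.61%, had an interval that lay wholly within 1.2-fold of no difference.

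The scaling moves the split between both directions. The authors' own library constants moved every ratio by -17.2%, a shift of -0.27 on the log2 scale, and gave 114 genes higher and 365 lower, so that 23.8% of called genes were higher against 43.2% with TMM. These constants count reads outside the listed genes, which made up 7.73% of the untreated and 21.4% of the treated library if the deposited normalized values are CPM, reads scaled to a common library total. Under all scalings tried, 114 of the 199 higher calls and 226 of the 262 lower calls held. Among the rows, 9 shared both read counts with another row, 7 of them called higher, so reads of some near-identical gene models appear more than once.

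**Figure D1:**
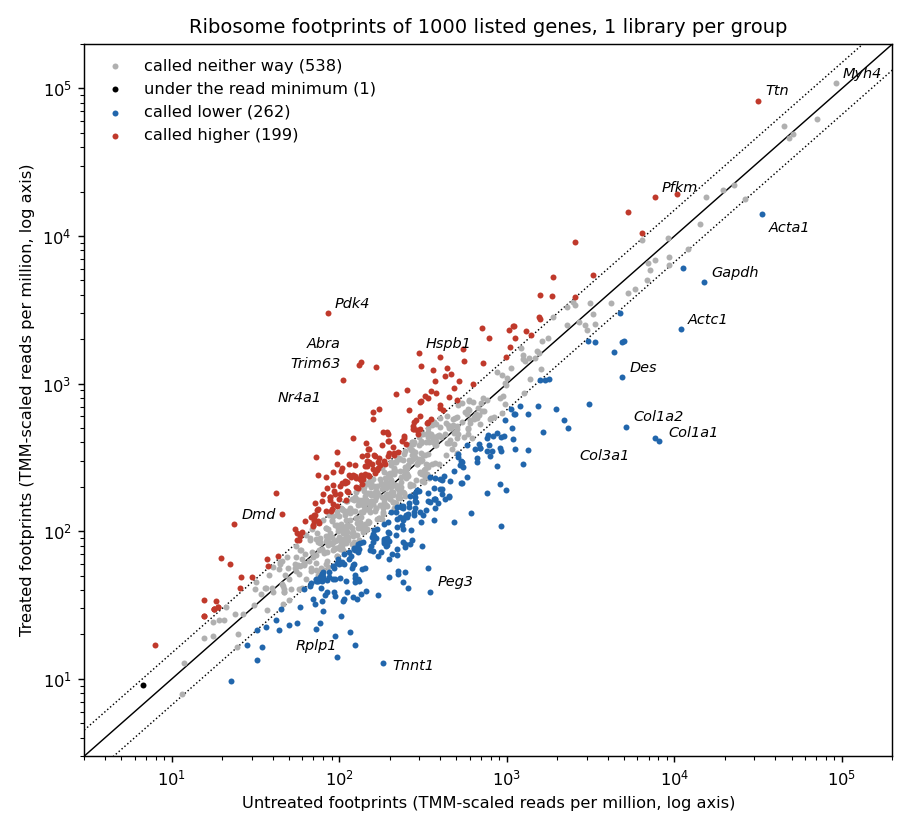
TMM-scaled footprint reads (CPM scale) of each of the 1000 listed genes, untreated on the horizontal and treated on the vertical axis, both logarithmic, 1 library per group; the solid line marks no difference and the dotted lines 1.5-fold. Red points are the 199 genes called higher, blue the 262 called lower; Pdk4, Abra, Trim63 and Nr4a1 lie farthest above the line and Col1a1, Col3a1, Tnnt1 and Col1a2 farthest below.

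Dystrophin, whose transcript is the target of the treatment, and its relative utrophin were examined first. Dmd (NM_007868) had 80 footprints in untreated and 183 in treated muscle, a 4.74-fold higher level (95% interval 3.62 to 6.24). Utrn (NM_011682) had 348 and 172, a ratio of 1.02 (0.847 to 1.23). The table counts reads over whole genes, so neither value shows whether exon 2 was skipped, and the Dmd count is no check of the labels.

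Genes that respond to contraction and strain stood farthest above the median gene. Of 20 genes written into that list 5 were listed in the table, and 4 were called higher and none lower, against 19.9% and 26.2% of all compared genes. The list's median log2 ratio was 2.96, or 2.98 above the median of all genes, and its share of footprints went from 0.1002% in untreated to 0.520% in treated muscle. Abra (NM_175456), an actin-binding activator of serum response factor signalling, had 459 reads untreated and 2286 treated and was 10.3-fold higher (9.32 to 11.4). Nr4a1 (NM_010444), an orphan nuclear receptor induced by contraction and adrenergic signals, had 355 and 1725 reads and was 10.1-fold higher (8.97 to 11.3). Xirp1 (NM_011724), an actin-binding protein of intercalated discs and of damaged sarcomeres, had 563 and 2122 reads, a 7.80-fold difference (7.11 to 8.58). Its relative Xirp2 (NM_001083919) had 1044 and 2176 reads and was 4.31-fold higher (4.01 to 4.65). In all 4 the raw treated count exceeded the untreated one although the treated library was the shallower. Ankrd1, a titin-bound protein that responds to stretch, was the exception, with 936 and 339 reads and a 1.33-fold lower level (1.18 to 1.51) that was called neither way with TMM and lower with the authors' constants.

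Genes of muscle protein breakdown and growth control were mostly higher. Of 18 listed members 11 were called higher and 3 lower, with a median log2 ratio of 0.72. With the authors' constants 7 were higher and 3 lower. Trim63 (NM_001039048), the ubiquitin ligase MuRF1 of muscle wasting, had 444 untreated and 2201 treated reads and was 10.3-fold higher (9.26 to 11.4). Asb5 (NM_029569), a subunit of another ubiquitin ligase, had 542 and 1052 reads, a 4.02-fold difference (3.62 to 4.47). The 3 lower members were Sh3glb1, a membrane-curving protein of autophagy, at 4.55-fold lower (3.49 to 6.02), Map1lc3a, a coat protein of autophagosomes, at 2.32-fold lower (1.96 to 2.75), and Kbtbd10, a kelch protein of the sarcomere, at 1.79-fold lower (1.67 to 1.92). Autophagy genes had no common direction, since Sqstm1, the cargo receptor p62, named after its value was seen, had 1279 and 1418 reads and was called higher at 2.295-fold (2.13 to 2.48).

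Among fuel genes, the highest single gene of the table was Pdk4 (NM_013743), the kinase that shuts pyruvate dehydrogenase when fat is burned. It had 290 untreated and 4927 treated reads, a 35.2-fold difference (31.2 to 39.7). The lipid list as a whole had 8 of 20 listed members called higher and 1 lower, with a median log2 ratio of 0.51, and 5 and 2 with the authors' constants. Fabp4, a fatty acid carrier, had 142 and 298 reads and was 4.34-fold higher (3.55 to 5.34). Lpin1, which makes diacylglycerol and also acts as a coregulator of fat oxidation genes, had 583 and 1112 reads and was 3.95-fold higher (3.57 to 4.37). Enzymes of fat oxidation itself lay closer to the median gene and on both sides of it, with more TMM ratios above 1 than below. In the whole lipid list 4 members had a ratio below 1. Not called, and named after their values were seen, were Cpt1b (ratio 1.49), Acadvl (1.47), Decr1 (1.38) and Etfb (1.27). The same holds for Cpt2 (1.17), Hadha (1.16), Acadm (1.13) and, below 1, Hadh (0.934). Hadhb, a subunit of the trifunctional protein, named after its value was seen, was called higher at 1.82-fold (1.69 to 1.96), Acaa2, a thiolase, was 1.27-fold lower (1.12 to 1.44), Acadl, a long-chain dehydrogenase, 1.11-fold lower (1.02 to 1.22), and Etfa, which takes their electrons, was called lower at 1.62-fold (1.40 to 1.88). Acacb, the acetyl-CoA carboxylase whose product holds back fat entry into mitochondria, is in none of the lists and was 3.58-fold higher (3.12 to 4.11), from 329 and 569 reads.

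Most glycogen genes were higher. Of 10 listed members 6 were called higher and 1 lower, with a median log2 ratio of 0.75. Phkg1, the catalytic subunit of phosphorylase kinase, had 861 and 1493 reads and was 3.59-fold higher (3.30 to 3.91). Ppp1r3a, which tethers protein phosphatase 1 to glycogen, had 1234 and 2024 reads and was 3.40-fold higher (3.16 to 3.65). Phkb, a regulatory subunit of the same kinase, was 2.53-fold higher (2.33 to 2.74), and Pygm, muscle glycogen phosphorylase, was 1.63-fold higher (1.60 to 1.67), from 21660 and 17097 reads. With the authors' constants Pygm was not called. Gyg, the primer protein of glycogen, was called lower at 1.85-fold (1.58 to 2.17), and Gys1, glycogen synthase, was called neither way at 1.14-fold higher (1.05 to 1.23), a log2 ratio of 0.18 that became -0.09 with the authors' constants.

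Glycolytic enzymes were called about as often as other genes. Of 14 listed members 3 were called higher and 2 lower (3 and 6 with the authors' constants), against 19.9% and 26.2% of all compared genes, and the list held 4.91% of footprints in both libraries. Its median log2 ratio was 0.19, and -0.09 with the authors' constants. The 3 higher genes act at entry and commitment: Pfkm, phosphofructokinase, had 25915 and 30066 reads and was 2.40-fold higher (2.36 to 2.44), Hk2, the inducible hexokinase, was 2.37-fold higher (2.19 to 2.57), and Slc2a4, the insulin-responsive glucose carrier, was 1.98-fold higher (1.81 to 2.17). Gapdh lay on the other side, with 50943 and 7955 reads and a 3.09-fold lower level (3.02 to 3.17), and so did Eno1, the enolase of non-muscle cells and immature fibres, at 2.18-fold lower (1.99 to 2.40). Gapdh has many near-identical pseudogenes, so its counts are uncertain. Hk1, the constitutive hexokinase, was called neither way at 1.46-fold lower (1.15 to 1.87).

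Mitochondrial enzymes stayed closer to the median gene. The list counts here stand beside 19.9% called higher and 26.2% called lower over all compared genes. The citrate cycle list had 4 of 23 members called higher and 1 lower, with a median log2 ratio of 0.22 that became -0.06 with the authors' constants, under which none was higher and 1 lower. Sdha, the flavoprotein of succinate dehydrogenase, had 4432 and 3745 reads and was 1.75-fold higher (1.67 to 1.83), whereas Dlat, a core subunit of pyruvate dehydrogenase, was 1.76-fold lower (1.57 to 1.97). Complex I had 2 of 31 members higher and 6 lower, a median of 0.06, and -0.21 with the authors' constants. Its extremes were Ndufa4, a small subunit now placed in complex IV, at 2.93-fold higher (2.74 to 3.13) from 1483 and 2097 reads, and the accessory subunit Ndufa6 at 2.59-fold lower (1.96 to 3.47). Complexes III and IV had 3 of 20 higher and 2 lower, a median of 0.03, and -0.25 with 0 higher and 5 lower under the authors' constants. The median of complex I was also below 0 with upper-quartile scaling, and that of complexes III and IV with upper-quartile scaling and with the listed totals. ATP synthase with its carriers had 1 of 19 higher and 6 lower and a median of -0.23. There Atp5j2, a small membrane subunit, was 1.998-fold higher (1.83 to 2.18), and Vdac2, a pore of the outer membrane, 1.85-fold lower (1.65 to 2.08).

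The list of phosphate buffers and the oxygen store had a median log2 ratio of 0.58. Of 9 listed members 4 were called higher and 1 lower, against 19.9% and 26.2% of all compared genes. The 4 include Pvalb, a calcium buffer, and Car3, carbonic anhydrase 3, which neither transfer phosphate nor store oxygen. Pvalb, parvalbumin, the calcium buffer of fast fibres, had 17865 and 23693 reads and was 2.75-fold higher (2.69 to 2.80). Ampd1, which deaminates AMP in working muscle, had 1875 and 2340 reads and was 2.58-fold higher (2.43 to 2.75). Mb, myoglobin, had 3502 and 3772 reads and was 2.23-fold higher (2.13 to 2.34). Ckm, muscle creatine kinase, had 48571 and 19911 reads and was called neither way at 1.18-fold lower (1.16 to 1.198). Itgb1bp3, a nicotinamide riboside kinase also known for integrin binding, was the lower member, at 2.79-fold (2.04 to 3.88).

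**Figure D2:**
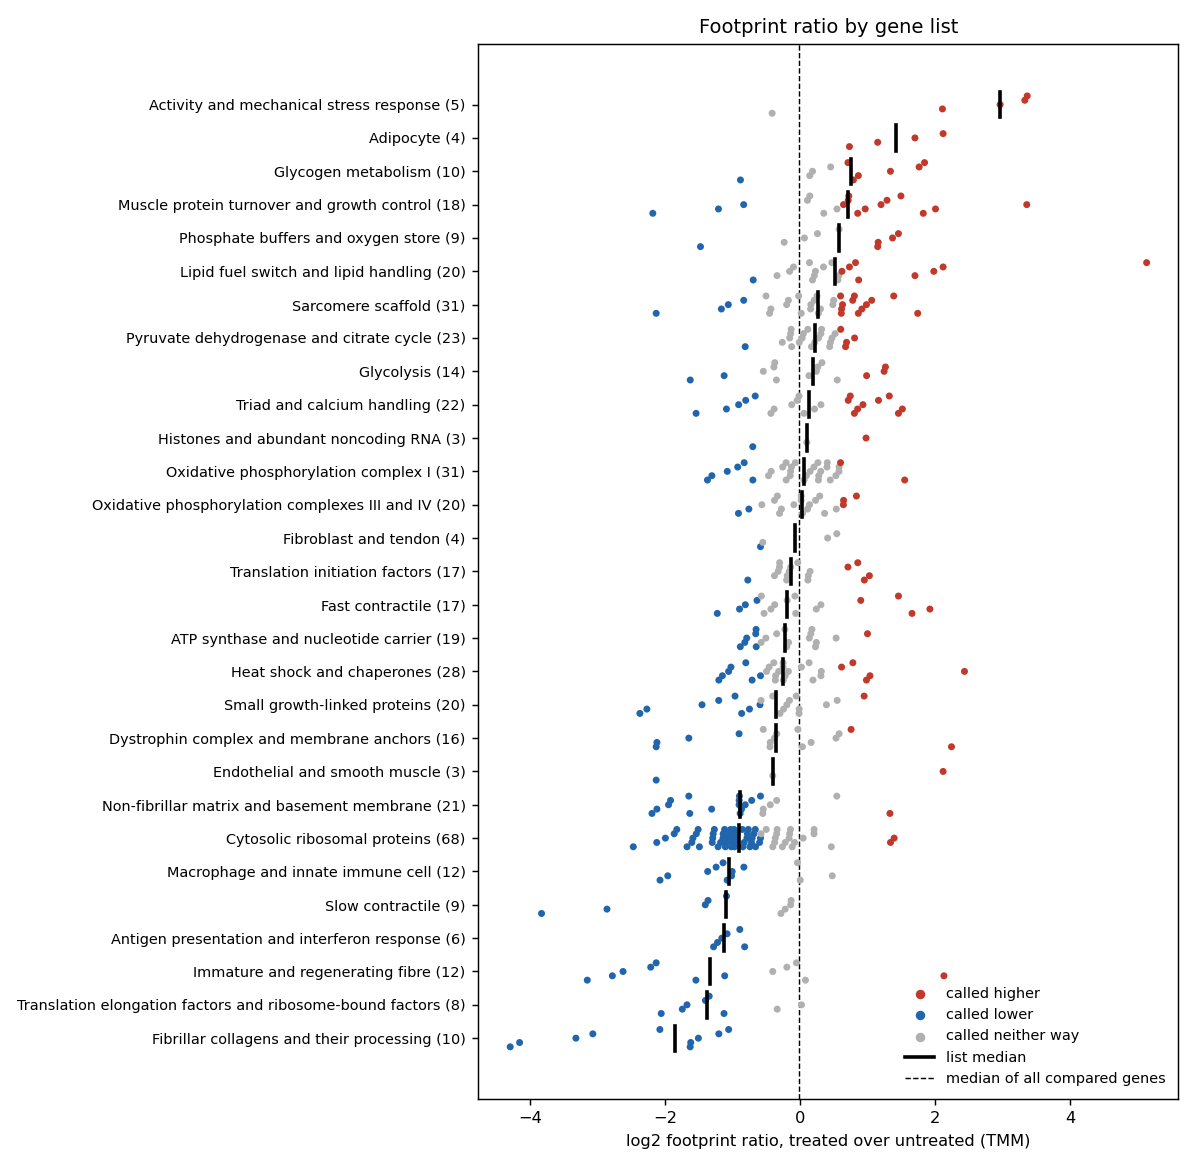
Log2 footprint ratio, treated over untreated, of each compared gene in the 29 lists with at least 3 compared members, ordered by list median; each point is 1 gene (red called higher, blue called lower, grey neither), each black bar a list median, the dashed line the median of all compared genes, and the number of genes stands in parentheses. Medians run from 2.96 for activity and stress genes to -1.86 for fibrillar collagens.

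Contractile genes of fast fibres were also called about as often as other genes. Of 17 listed members 4 were called higher and 4 lower, with 4 and 8 under the authors' constants, against 19.9% and 26.2% of all compared genes, and the list's share of footprints was 38.9% untreated and 37.2% treated. The higher ones included Mylk2, skeletal myosin light chain kinase, with 1359 and 2490 reads at 3.79-fold (3.55 to 4.06), Mylk4, a related kinase, at 3.16-fold (2.98 to 3.35), and Tnni2, fast troponin I, with 34983 and 31501 reads at 1.86-fold (1.84 to 1.89). Acta1, skeletal alpha-actin, had 112492 and 23189 reads and was 2.34-fold lower (2.31 to 2.38). Mylpf, the fast regulatory light chain, had 38287 and 9921 reads and was 1.86-fold lower (1.82 to 1.91). The light chain and the kinase that phosphorylates it were thus called in opposite directions. Mybpc2, fast myosin-binding protein C, was 1.76-fold lower (1.69 to 1.83).

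No myosin heavy chain gene was called. The 9 sarcomeric ones, a group assembled after the values were seen, held 32.9% of untreated and 32.4% of treated footprints on the listed genes. Of the whole library, with the deposited normalized values read as CPM, they held 30.4% and 25.4%. Myh4, the chain of type IIb fibres, had 311391 and 177555 reads and was 1.18-fold higher (1.17 to 1.19), a log2 ratio of 0.24 that became -0.03 with the authors' constants. Myh1, of type IIx fibres, had 241803 and 102186 reads and was 1.14-fold lower (1.13 to 1.15). These genes have long near-identical stretches and can share reads, so the ratio of a single one is uncertain.

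Slow fibre genes had a median below that of all genes. None of 9 listed members was called higher and 5 were called lower, the same counts as with the authors' constants, and the median log2 ratio was -1.09. Tnnt1 (NM_011618), slow troponin T, had 620 and 21 reads and was 14.3-fold lower (9.25 to 23.2). Myom3, the M-band protein of slow and intermediate fibres, had 422 and 28 reads and was 7.28-fold lower (4.96 to 11.1). Actn2, the alpha-actinin found in all fibres and in heart, had 14737 and 2685 reads and was 2.65-fold lower (2.54 to 2.76). By contrast Myh7, the slow myosin chain, had 25854 and 11379 reads and lay at 1.098-fold lower (1.07 to 1.12), Myh7b at 1.103-fold (1.07 to 1.14), Tpm3, slow tropomyosin, at 1.17-fold (1.02 to 1.33), and Tnnc1, troponin C of slow and cardiac muscle, named after its value was seen, at 1.22-fold (1.02 to 1.46), none of them called. As for the other myosin heavy chains, shared reads leave the ratios of Myh7 and Myh7b uncertain.

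Genes of immature and regenerating fibres were also mostly lower, with 7 of 12 listed members called lower, 1 higher, and a median log2 ratio of -1.33. Peg3 (NM_008817), an imprinted gene of muscle stem cells and growth, had 1181 and 64 reads and was 8.91-fold lower (6.93 to 11.7). Capn6, an embryonic muscle calpain relative, had 328 and 23 reads and was 6.89-fold lower (4.51 to 11.02). Grb10, an imprinted adaptor that restrains insulin signalling, had 869 and 68 reads and was 6.17-fold lower (4.82 to 8.02). Actc1 (NM_009608), the cardiac actin of fetal and regenerating skeletal muscle, had 36926 and 3841 reads and was 4.64-fold lower (4.49 to 4.80). Actin genes, Acta1 and Acta2 among them, are related in sequence and may share reads, which was not tested. The neonatal and embryonic myosins did not follow: Myh8 had 173168 and 80493 reads at 1.04-fold lower (1.03 to 1.05), with a ratio above 1 without the 20 most abundant genes, and Myh3 had 66294 and 33820 at 1.06-fold higher (1.04 to 1.07), which fell below 1 with the authors' constants and with upper-quartile scaling. Myf6, a transcription factor of mature fibres that the list also holds, was 4.38-fold higher (3.76 to 5.12), from 248 and 525 reads. The limit given above for single myosin heavy chains, which can share reads, holds for Myh8 and Myh3 too, so this contrast is uncertain. Because Myh8 and Myh3 carry most of the list's reads, its share was 9.38% untreated and 7.63% treated, a ratio of 0.814, and the ratio was 0.372 without the 20 most abundant genes.

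Scaffold genes of the sarcomere held 7.32% of untreated and 12.95% of treated footprints, a ratio of 1.77 that was 1.27 without the 20 most abundant genes, Ttn among them. Of 31 listed members 12 were called higher and 4 lower, with 6 and 7 under the authors' constants. The median log2 ratio was 0.27 with TMM and -0.00 with those constants. Ttn (NM_011652), titin, the spring that spans from Z-disc to M-band, had 107397 and 135680 reads and was 2.62-fold higher (2.59 to 2.64), and its share went from 3.21% to 8.15%, the largest gain of any listed gene. Tcap, which caps titin at the Z-disc, had 2411 and 3898 reads and was 3.35-fold higher (3.18 to 3.52), and Nrap, an actin-binding protein of myofibril assembly, was 2.09-fold higher (2.01 to 2.16), from 6353 and 6401 reads. Des (NM_010043), the intermediate filament desmin, had 16552 and 1821 reads and was 4.39-fold lower (4.18 to 4.61). Fhl1, a LIM protein, was 2.25-fold lower (2.04 to 2.48).

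**Figure D3:**
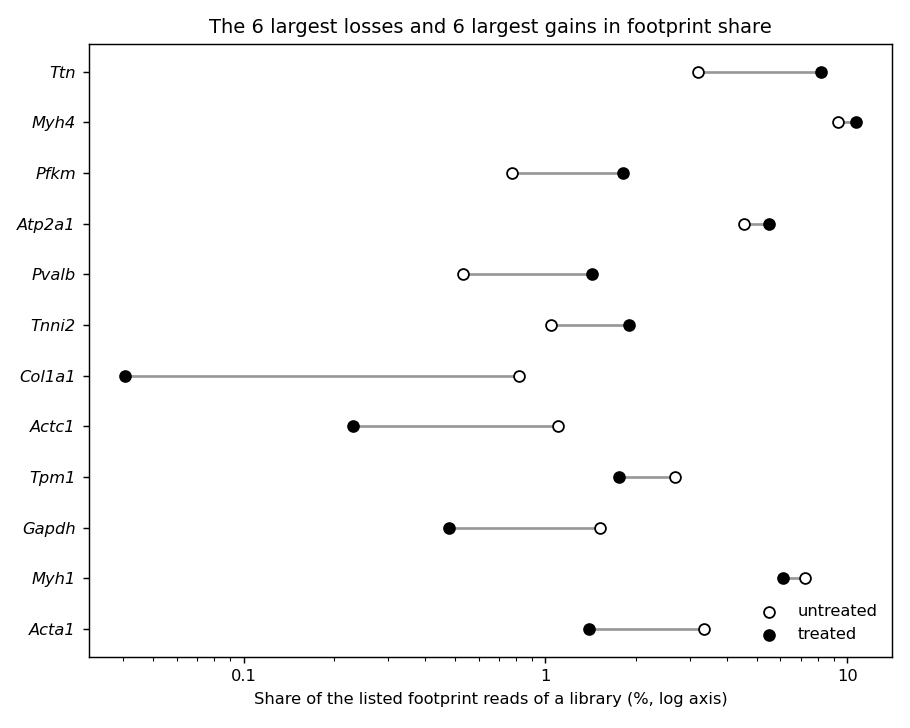
Share of all listed footprint reads, on a log axis in percent, for the 6 genes with the largest gains and the 6 with the largest losses in percentage points; open circles are the untreated and filled circles the treated library. Ttn goes from 3.21% to 8.15% and Acta1 from 3.36% to 1.39%, while Col1a1 drops furthest on this axis.

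Triad and calcium genes, which couple the action potential to calcium release, had 9 of 22 members called higher and 5 lower. Over all compared genes 19.9% were called higher and 26.2% lower. With the authors' constants 5 members were higher and 7 lower. The median log2 ratio was 0.13, and -0.14 with those constants. Jph2, a junctophilin that ties the surface membrane to the calcium store, had 155 and 214 reads and was 2.86-fold higher (2.31 to 3.54), and Scn4a, the sodium channel of the muscle action potential, had 1028 and 1241 reads and was 2.50-fold higher (2.30 to 2.72). Atp2a1, the calcium pump of fast fibres, had 152732 and 91347 reads and was called neither way at 1.24-fold higher (1.23 to 1.25), a log2 ratio of 0.31 that became 0.04 with the authors' constants. Srl, sarcalumenin, a calcium-binding protein of the store, had 6678 and 1107 reads and was 2.91-fold lower (2.73 to 3.11). Casq2, the calsequestrin of slow and cardiac muscle, was 2.13-fold lower (1.97 to 2.32), and Bin1, which shapes transverse tubules, 1.88-fold lower (1.72 to 2.06).

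Of the dystrophin complex and its anchors 16 genes were listed, with 2 called higher and 4 lower, against 19.9% and 26.2% of all compared genes. With the authors' constants 1 was higher and 9 lower. The median log2 ratio with TMM was -0.36. Besides Dmd the higher gene was Ank3, an ankyrin that helps to place dystrophin at the membrane, with 379 and 309 reads at 1.69-fold (1.45 to 1.97). Dtna, dystrobrevin, was just under the threshold at 1.49-fold higher (1.21 to 1.84). The lower ones were matrix and filament anchors: Des, given above, Col6a2 with 4231 and 469 reads at 4.36-fold (3.96 to 4.80), Col6a1 with 2957 and 455 at 3.14-fold (2.84 to 3.47), both chains of collagen VI, and Lamb1, a laminin chain named after its value was seen, at 1.87-fold (1.66 to 2.12).

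The extracellular matrix held the lowest genes. All 10 listed genes of fibrillar collagens and their processing were called lower, under the authors' constants too, against 26.2% of all compared genes, with a median log2 ratio of -1.86. Together they held 2.43% of untreated footprints (2.41 to 2.45) and 0.213% of treated ones (0.206 to 0.220), an 11.4-fold smaller share. Col1a1 (NM_007742) had 27462 untreated and 674 treated reads and was 19.7-fold lower (18.2 to 21.3). Col3a1 (NM_009930) had 26007 and 703 and was 17.9-fold lower (16.6 to 19.3). Col1a2 (NM_007743) had 17424 and 840 and was 10.02-fold lower (9.35 to 10.8). Col1a1 and Col1a2 are the 2 chains of type I collagen and Col3a1 makes the type III collagen laid down with it. The processing proteins differed by less, with P4hb, the beta subunit of prolyl hydroxylase, at 2.31-fold lower (2.03 to 2.63) and Serpinh1, the collagen chaperone, at 2.85-fold lower (2.37 to 3.43).

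Other matrix genes were lower as well, with 15 of 21 called lower and 1 higher and a median log2 ratio of -0.89. Fn1, fibronectin, had 7859 and 828 reads and was 4.58-fold lower (4.27 to 4.93). Sparc, a collagen-binding matrix glycoprotein, had 7430 and 928 and was 3.87-fold lower (3.61 to 4.15). Fstl1, a secreted glycoprotein outside the lists, had 2068 and 219 and was 4.56-fold lower (3.97 to 5.27). The 1 higher gene was Igfbp5, a binding protein of insulin-like growth factors that fibres also make, with 1203 and 1462 reads at 2.52-fold (2.33 to 2.72). Decorin, Dcn, a small proteoglycan of fibroblasts, went against the collagens at 1.46-fold higher (1.41 to 1.51), uncalled, from 7707 and 5424 reads. The 4 listed fibroblast and tendon markers were thus mixed, with 1 called lower: Gsn at 1.33-fold higher (1.28 to 1.37), Thbs4 at 1.47-fold lower (1.37 to 1.58) and Lum called lower at 1.503-fold (1.37 to 1.65). With the authors' constants 2 of the 4 were called lower. Their summed share was 0.644% of untreated and 0.762% of treated footprints, and the part of fibroblast number in the matrix values was not tested. Pdgfra, Scx and Tnmd, which define fibroblasts and tendon cells, are not among the listed genes.

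Of 36 macrophage markers written into the list 12 were listed, and 9 of these were called lower and none higher. Over all compared genes 26.2% were called lower and 19.9% higher. The written markers Csf1r, Cd68, Emr1 and Itgam are not among the listed genes. The list's median log2 ratio was -1.05, and the summed share of the 12 was 1.09% untreated and 0.642% treated. The part of macrophage number in these values was not tested. Apoe, a lipid carrier made in quantity by macrophages, had 10485 and 1200 reads and was 4.22-fold lower (3.98 to 4.48). Ctss, a protease of antigen-presenting cells, had 1057 and 131 and was 3.90-fold lower (3.25 to 4.71), and C1qa, a complement chain, had 423 and 79 and was 2.59-fold lower (2.03 to 3.33). Lysosomal genes of the list differed among themselves. Ctsb and Lgmn, lysosomal proteases named after their values were seen, were called lower at 2.12-fold (1.98 to 2.27) and 2.21-fold (1.93 to 2.54). The 3 members not called were lysosomal too: Ctsd lay at 1.00-fold (0.943 to 1.06), Psap at 1.03-fold lower (0.991 to 1.07) and Ctsl at 1.39-fold higher (1.27 to 1.52). Antigen presentation genes were called lower in 6 of 6 cases, with a median log2 ratio of -1.12, from H2-Aa, a class II chain, at 1.77-fold lower (1.58 to 1.99) to H2-D1, a class I heavy chain, at 2.43-fold lower (2.22 to 2.68). B2m, which encodes the class I light chain, was 2.12-fold lower (1.96 to 2.29). Class I heavy chain genes are near-identical and can share reads. Tfrc, the transferrin receptor of dividing and iron-demanding cells, was 4.36-fold lower (3.90 to 4.90), from 3081 and 341 reads.

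Adipocyte markers went the other way. All 4 listed members were called higher, and 3 with the authors' constants, and their share was 0.154% untreated and 0.332% treated. Beside Fabp4 these were Plin4, a lipid droplet coat protein, at 3.25-fold (2.77 to 3.83), Car3, carbonic anhydrase 3, at 2.22-fold (2.12 to 2.32), and Lpl, lipoprotein lipase, at 1.66-fold (1.51 to 1.82). Muscle fibres express all but Fabp4 in quantity, and Adipoq, Plin1 and Lep, which define adipocytes, are not among the listed genes. The part of fat cells in the lipid gene values was not tested. Endothelial and smooth muscle markers had 3 listed members, Fabp4, Des and Acta2, the last at 1.33-fold lower (1.28 to 1.37), and no marker of lymphocytes, red blood cells or Schwann cells was listed.

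Among the lists, ribosomal proteins had the most members called lower. Of 68 listed cytosolic ribosomal protein genes 48 were called lower and 2 higher, against 26.2% and 19.9% of all compared genes, with a median log2 ratio of -0.90. The higher ones include Rps27a, a small subunit protein, with 1451 and 1841 reads at 2.63-fold (2.45 to 2.82). Rplp1, an acidic stalk protein, had 391 and 34 reads and was 5.56-fold lower (3.91 to 8.14). Rps3a had 759 and 84 and was 4.36-fold lower (3.48 to 5.54), and Rpl10a had 670 and 81 and was 4.00-fold lower (3.17 to 5.10). Rpl3l, a form of Rpl3 found in striated muscle, was the highest member not called, at 1.38-fold higher (1.22 to 1.55), from 690 and 459 reads. Most of these genes have processed pseudogenes with near-identical sequence.

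Elongation and ribosome-bound factors lay lower still, with 6 of 8 listed genes called lower, none higher, and a median log2 ratio of -1.38. Tpt1, the translationally controlled tumour protein, had 1640 and 190 reads and was 4.17-fold lower (3.59 to 4.87). Eef1b2, an exchange factor of elongation, was 3.36-fold lower (2.55 to 4.49), and Gnb2l1, the ribosomal scaffold RACK1, 3.20-fold lower (2.67 to 3.86). Eef1a1, the elongation factor of most tissues, had 5210 and 1151 reads and was 2.19-fold lower (2.05 to 2.33), whereas Eef1a2, its counterpart in mature muscle, had 5405 and 2062 and was 1.27-fold lower (1.203 to 1.33), uncalled. Of this pair the member of most tissues differed more between the libraries than the muscle one. Their intervals did not overlap, but these cover counting error only and no spread between samples. These related genes can share reads, so the contrast is uncertain. Naca, a nascent chain factor with a muscle form, lay at 1.01-fold (0.966 to 1.06).

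Initiation factors did not share this. Of 17 listed genes 4 were called higher and 1 lower, against 19.9% and 26.2% of all compared genes. Under the authors' constants 2 were higher and 3 lower, and the median log2 ratio with TMM was -0.14. Eif1, which guides start codon choice, had 550 and 541 reads and was 2.04-fold higher (1.81 to 2.30). The cap-complex scaffolds Eif4g3 and Eif4g1 were 1.93-fold (1.67 to 2.24) and 1.81-fold higher (1.67 to 1.96). Eif3l, a subunit of the large factor that binds the small ribosomal subunit, was called lower at 1.71-fold (1.38 to 2.13).

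**Figure D4:**
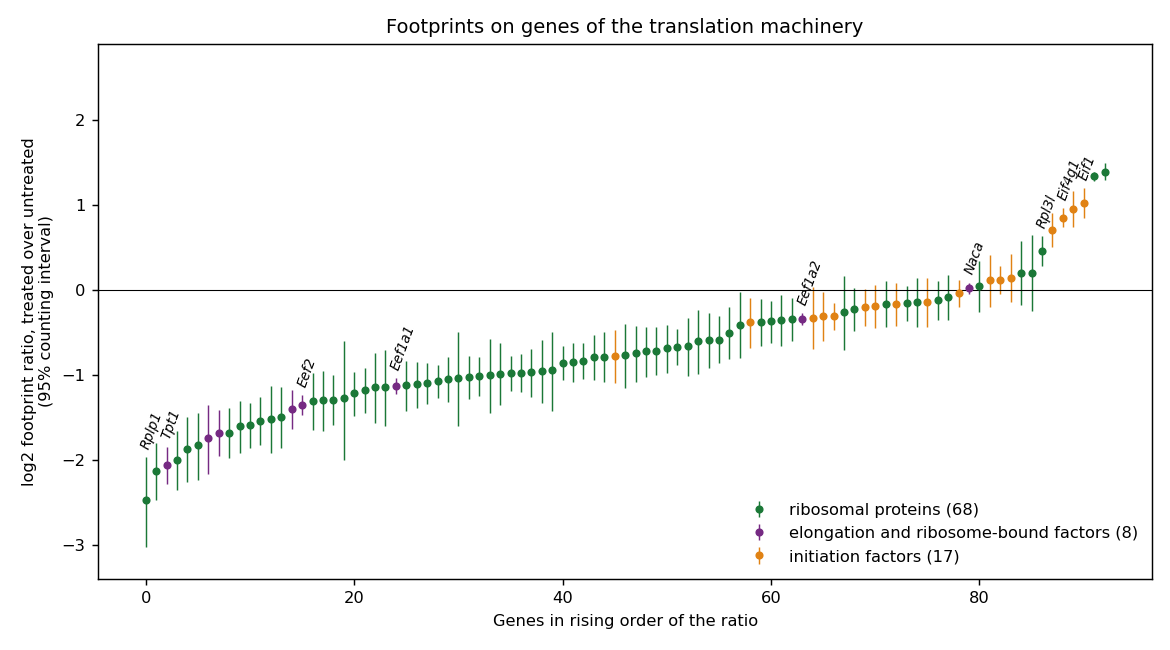
Log2 footprint ratio, treated over untreated, with its 95% counting interval, for 68 ribosomal protein genes, 8 elongation and ribosome-bound factors and 17 initiation factors, placed in rising order. The left end is made of ribosomal proteins and elongation factors, with Rplp1 lowest, and Eif1, Eif4g3 and Eif4g1 stand near the right end.

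Chaperones and small proteins of growing cells made up the remaining lists. Of 28 listed chaperones 5 were called higher and 7 lower, against 19.9% and 26.2% of all compared genes. They were thus called about as often as other genes. With the authors' constants 3 were higher and 13 lower, and the median log2 ratio with TMM was -0.25. Of the small heat shock proteins, Hspb6 at 1.14-fold higher (0.9996 to 1.30) and Cryab at 1.13-fold lower (1.05 to 1.22), both named after their values were seen, were not called. Among the higher ones Hspb1 (NM_013560) had 1009 and 2637 reads and was 5.41-fold higher (5.03 to 5.82), Hspb8 was 2.05-fold higher (1.80 to 2.33), and Bag3, the cochaperone that Hspb8 binds in the clearance of damaged filaments, was 1.98-fold higher (1.74 to 2.24). The lower ones included P4hb, given above, St13, an Hsp70 cofactor, at 2.22-fold (1.84 to 2.70), and Canx, calnexin, a chaperone of the endoplasmic reticulum, at 2.09-fold (1.80 to 2.43). Of 20 small growth-linked proteins 8 were called lower and 1 higher, with a median of -0.35. Lgals1, galectin 1, had 3342 and 311 reads and was 5.19-fold lower (4.62 to 5.85), Hn1 had 320 and 32 and was 4.83-fold lower (3.35 to 7.18), and Hmgb1, a chromatin protein, was 1.93-fold higher (1.69 to 2.20). The histone list had 3 listed genes and no common direction: Hist1h4h was 1.97-fold higher (1.69 to 2.29), Hist1h2bc 1.63-fold lower (1.28 to 2.09), and H3f3a lay at 1.07-fold (0.925 to 1.24). Its median of 0.10 turned negative with upper-quartile scaling and with the authors' constants.

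Several of the most different genes belong to none of the lists. Atl2, which fuses tubules of the endoplasmic reticulum, had 739 and 1395 reads and was 3.91-fold higher (3.57 to 4.28), and Art3, a muscle ADP-ribosyltransferase relative, had 538 and 953 and was 3.67-fold higher (3.30 to 4.08). Prkaca, which encodes the catalytic part of the cyclic AMP-dependent kinase PKA, had 1143 and 93 reads and was 5.94-fold lower (4.80 to 7.42), and Ubxn1, a ubiquitin-binding cofactor, had 818 and 74 and was 5.34-fold lower (4.21 to 6.87). In all, 449 of the 1000 genes were in a list, with 83 of the 199 higher and 155 of the 262 lower calls. A gene could stand in more than one list, as Des does, so list counts do not add up.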

How the data were processed

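The authors deposited 1 table of raw read counts per gene, per the file headers whole reads, for 2 mRNA and 2 footprint libraries. The authors also deposited normalized values, made per the file headers from the same reads and read here as CPM. That unit is inferred: within 0.1, 1 constant per library turns the counts into these values for 100% of genes. The submitters' processing notes list Trimmomatic, STAR, edgeR and the build mm9, with no role or version. How reads were counted, and whether by strand, is not given in the sources at hand. No column was left without a sample (0 such columns). The RefSeq gene table of GRCm38.p6 held 996 of the 1000 identifiers and 76 symbols differ from current ones. Symbols follow the deposited table.

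The footprint counts were scaled with TMM (edgeR 4.0.16, R 4.3.3) over the listed genes of both libraries. Ratios have exact conditional binomial 95% intervals (scipy 1.17.1), and shares have exact Clopper-Pearson ones. Reads carry no molecular identifiers, so intervals cover counting error only, and a call compares libraries, not conditions. Other scalings tried were the authors' constants, the upper quartile, DESeq2 1.42.0, the listed totals with and without the 20 most abundant genes, and TMM over all 4 libraries. The read minimum was dropped or set to 200, and the threshold raised to 2-fold. The procedure was tested on simulated counts that held counting error only, with most genes unchanged and as many raised as lowered. That simulation covers neither the spread between samples nor the scaling where many genes differ or the directions are unbalanced. Footprints per coding length were not analysed here, so read numbers are compared within a gene and not between genes.

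Named genes are Dmd and Utrn, the 20 highest and 20 lowest, ranked by whichever interval bound is closer to 1, the 8 largest gains and losses in share, and the 3 highest and 3 lowest of each list, with others marked where they appear. A few genes that this rule would name are not reported here. The members and the 32 lists were chosen with earlier results of these data known.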

Additional observations from a re-analysis of the deposited data

How the results depend on the processing

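With TMM 199 genes were called higher and 262 lower. The higher count moved to 114 with the authors' constants (365 lower, and 23.8% of called genes higher against 43.2%). At a 2-fold threshold the counts were 81 and 143. Both counts stayed within 1.5 times of the TMM counts with DESeq2 size factors (210 and 249), listed totals (185 and 278), the upper quartile (159 and 302), without the 20 most abundant genes (238 and 226), with no minimum (199 and 262) and with a minimum of 200 reads (184 and 254). TMM over all 4 libraries gave the same size ratio. No paired analysis was possible because each group has 1 footprint library, and for the same reason no library could be left out. The planned values per coding length and by coding length were not run, for want of coding lengths. Depth limits genes with 50 to 199 reads, whose median interval half-width was 0.56 on the log2 scale.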

Other observations

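Families picked by symbol after their values were seen are described without a test. Some of their members also stand in a list above. Over all compared genes 19.9% were called higher and 26.2% lower. All 5 listed glutathione transferases, which conjugate reactive compounds to glutathione, were called higher in treated footprints, from Gstp1 at 1.63-fold (1.49 to 1.78) to Gstm1 at 2.76-fold (2.45 to 3.11), the latter from 489 untreated and 652 treated reads. Gstp1 and Gstp2 are near-identical and had 1133 and 1146 untreated reads, so they are not separate evidence. With the authors' constants these 2 were not called, and 3 of the 5 were called under every scaling. The 3 listed enzymes of branched-chain and propionate breakdown were called higher: Bckdha at 2.99-fold (2.59 to 3.45), Mut at 2.18-fold (1.82 to 2.61) and Pccb at 1.93-fold (1.64 to 2.28). Among DEAD-box RNA helicases Ddx5 was 2.79-fold higher (2.59 to 3.0004), from 1264 and 1702 reads, and Ddx3x 2.60-fold higher (2.33 to 2.89), while Ddx1 was 1.56-fold lower (1.31 to 1.87), a call lost without the 20 most abundant genes.

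Catalytic subunits of protein phosphatase 1 differed among themselves: Ppp1ca had 840 and 87 reads and was 4.66-fold lower (3.74 to 5.89), Ppp1cc was 2.15-fold lower (1.64 to 2.87), and Ppp1cb was called neither way at 1.25-fold higher (1.101 to 1.42). Prkar1a, a regulatory subunit of protein kinase A, had 864 and 439 reads at 1.05-fold (0.936 to 1.18), unlike the catalytic Prkaca. The proteasome had 3 of 20 listed subunits called higher and 1 lower, against 19.9% and 26.2% of all compared genes. Its median log2 ratio was 0.32, and 1 of the 3 higher calls held under every scaling. Psma1, Psmb1 and Psmd1 were already counted above, in the list of muscle protein breakdown. Of 5 mitochondrial carriers 4 were called lower, against 26.2% of all compared genes, and 1 of the 4, Slc25a3, under every scaling. Slc25a3, Slc25a4 and Slc25a5 were already counted above, in the list of ATP synthase with its carriers. The calls lost without the 20 most abundant genes include that of Slc25a4, the ATP and ADP exchanger, which was 1.58-fold lower with TMM (1.52 to 1.64), from 10396 and 3181 reads.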
